A study of Homo sapiens with 16 samples.

Results

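The mRNAs described here are 10 transcripts that are grouped with the ribosomal protein mRNAs by the way their translation is controlled, although none of them encodes a ribosomal protein. They are the elongation factor genes EEF1A1, EEF1B2, EEF1D, EEF1G and EEF2, and the genes TPT1, PABPC1, NPM1, NAP1L1 and HNRNPA1. They were taken by symbol, and not by a limit on their values, from the 58302 Ensembl genes listed in the count files. Earlier results of these data were known when they were chosen. Reads were found for 9 of the 10. They were measured in HEK293, a widely used line derived from human embryonic kidney, in 16 RNA-Seq libraries. Cytoplasmic lysate RNA (Input) and RNA of pooled polysomal gradient fractions (Polysome) each gave 4 libraries of cells treated with an siRNA against Gemin5 at 100 nM (siRNAG5) and 4 of cells without it (Ctrl). All cells were kept in the same medium, and polysomes were held on the mRNA with cycloheximide. The labels call the Ctrl cells untreated, whereas the protocol and the study describe a control siRNA for them. The silencing was transient, and the libraries of a group came from independent biological samples according to the study. RNA of a whole culture was measured, in which fewer cells expressing a gene and less RNA per cell cannot be told apart.

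A TOP mRNA begins with a C followed by a run of pyrimidines at its very 5′ end, the terminal oligopyrimidine tract. Through this tract, mTORC1 signalling and the protein LARP1 move the whole class between translating polysomes and a stored, poorly translated pool, which lets a cell adjust its supply of translation machinery together. EEF1A1 delivers aminoacyl-tRNA to the ribosome, EEF1B2, EEF1D and EEF1G form the complex that recharges it with GTP, and EEF2 moves the ribosome by a codon along the mRNA. PABPC1 binds the poly(A) tail, NPM1 is a nucleolar chaperone in ribosome assembly, NAP1L1 is a histone chaperone, HNRNPA1 is a splicing factor, and TPT1 encodes the small abundant protein TCTP. Gemin5 is the RNA-binding subunit of the SMN complex and also associates with ribosomes.

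The start of the transcript is the feature that defines the class, so the genomic strand around the RefSeq start (GRCh38.p14) is shown for the 6 members with a tract there, from 10 bases before the start to 20 bases into the transcript. Capitals mark the tract, that is, the first C and the unbroken pyrimidines after it.
EEF1A1: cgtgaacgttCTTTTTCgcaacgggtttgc
EEF1B2: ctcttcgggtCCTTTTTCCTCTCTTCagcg
EEF2: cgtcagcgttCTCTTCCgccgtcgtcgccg
TPT1: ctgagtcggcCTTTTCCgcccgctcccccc
NPM1: agcctgcgtcCTTTCCCTggtgtgattccg
NAP1L1: gctcttgggtCTTTTTTagcgccatctgct

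These stretches lie at chr6:73521013-73521042 (minus strand) for EEF1A1, chr2:206159885-206159914 (plus) for EEF1B2, chr19:3985444-3985473 (minus) for EEF2, chr13:45341164-45341193 (minus) for TPT1, chr5:171387839-171387868 (plus) for NPM1 and chr12:76084666-76084695 (minus) for NAP1L1. The tract was 7 bases long in EEF1A1, EEF2, TPT1 and NAP1L1, 8 in NPM1 and 16 in EEF1B2. EEF1B2 and NPM1 each had a further RefSeq start without a tract. The entry of EEF1G begins with an A, at base 62573891 of chromosome 11. EEF1D, PABPC1 and HNRNPA1 were not in the promoter table used here. A C with at least 5 pyrimidines after it stood at the start of 3.02% of all 35116 promoter entries, and 46 of the 63 ribosomal protein genes with an entry had it (73.0%). The 6 members shared another feature. Each held the letters TATA on the strand that reads like the mRNA, 23 to 30 bases before its start, whereas only 6.17% of all entries held these letters beginning 20 to 40 bases before the start. Both features stood at the same start in 0.134% of the entries. Counted per gene, 0.172% of the 27305 genes with an entry had such a start, against 9 of the 63 ribosomal protein genes (14.3%). The search used only the strand that reads like the mRNA, and a match describes letters and not a bound site.

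Reads counted on genes ranged from 11145324 to 24511299 per library. In Input, 4.88 to 6.04% of reads aligned to several places and were left uncounted, against 21.2 to 42.4% in Polysome. Levels are given as CPM, the count of a gene relative to its library, with TMM factors fitted over the 16 libraries, and SE is the standard error of a fitted log2 FC. GEMIN5 itself fell in siRNAG5, from 17.9 ± 2.32 to 6.71 ± 0.528 CPM in Input and from 7.43 ± 1.56 to 2.64 ± 0.495 CPM in Polysome (mean ± SD of 4 libraries), and its groups were separate in both fractions (edgeR adjusted p = 3.11e-10 and 0.00477). The 7 markers of HEK293 cells summed to 1149 to 1672 CPM in Input and 487 to 767 CPM in Polysome, and none was at 0. The 14 liver genes used as markers of another cell type summed to 79.6 to 164 CPM in Polysome Ctrl and to 1.12 to 148 CPM in Input Ctrl, against at most 1.26 CPM in siRNAG5 libraries, where 7 of the 14 were at 0 in each fraction. In Polysome these liver reads therefore went with Ctrl, and their part in the Polysome results was not tested. The sums of the blood, brain and fibroblast markers were at most 10.1 CPM in all libraries.

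EEF1G (ENSG00000254772, chromosome 11 of GRCh38 from 62559596 to 62574086) had 0 reads in each of the 16 libraries. Of the 1446 exonic bases of its canonical transcript, 1439 (99.5%) also lie in exons of ENSG00000255508, a gene on the same strand that had 14 reads over all libraries, and the counting listed reads on more than 1 gene apart from the genes. The 0 is thus no measure of EEF1G mRNA, and the gene enters no comparison. Among the other members, TPT1 shared 2.95% and PABPC1 1.99% of such bases with another gene, and the remaining 7 shared none.

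Most members have pseudogenes, further copies of the gene in the genome. The files list 227 of them, of which 218 are annotated as processed, that is, derived from spliced mRNA. There are 49 for EEF1A1, 74 for HNRNPA1, 49 for NPM1, 15 for TPT1, 13 for PABPC1, 8 each for EEF1B2, EEF1D and EEF1G, 3 for NAP1L1 and none for EEF2. Reads counted on them came to 0.127 to 1.83% of the reads of the parent in a group, leaving aside EEF1G, of whose copies 5 had reads while the gene itself had none. The uniquely placed reads thus lay almost entirely on the parent genes, but reads of the parent that match a copy equally well were lost, and the levels of these members are uncertain to that extent. EEF1A1, EEF1D, TPT1 and NAP1L1 also overlap genes on the opposite strand, and although the libraries were stranded, the strand setting of the counting is not given in the sources used here.

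**Figure D1:**
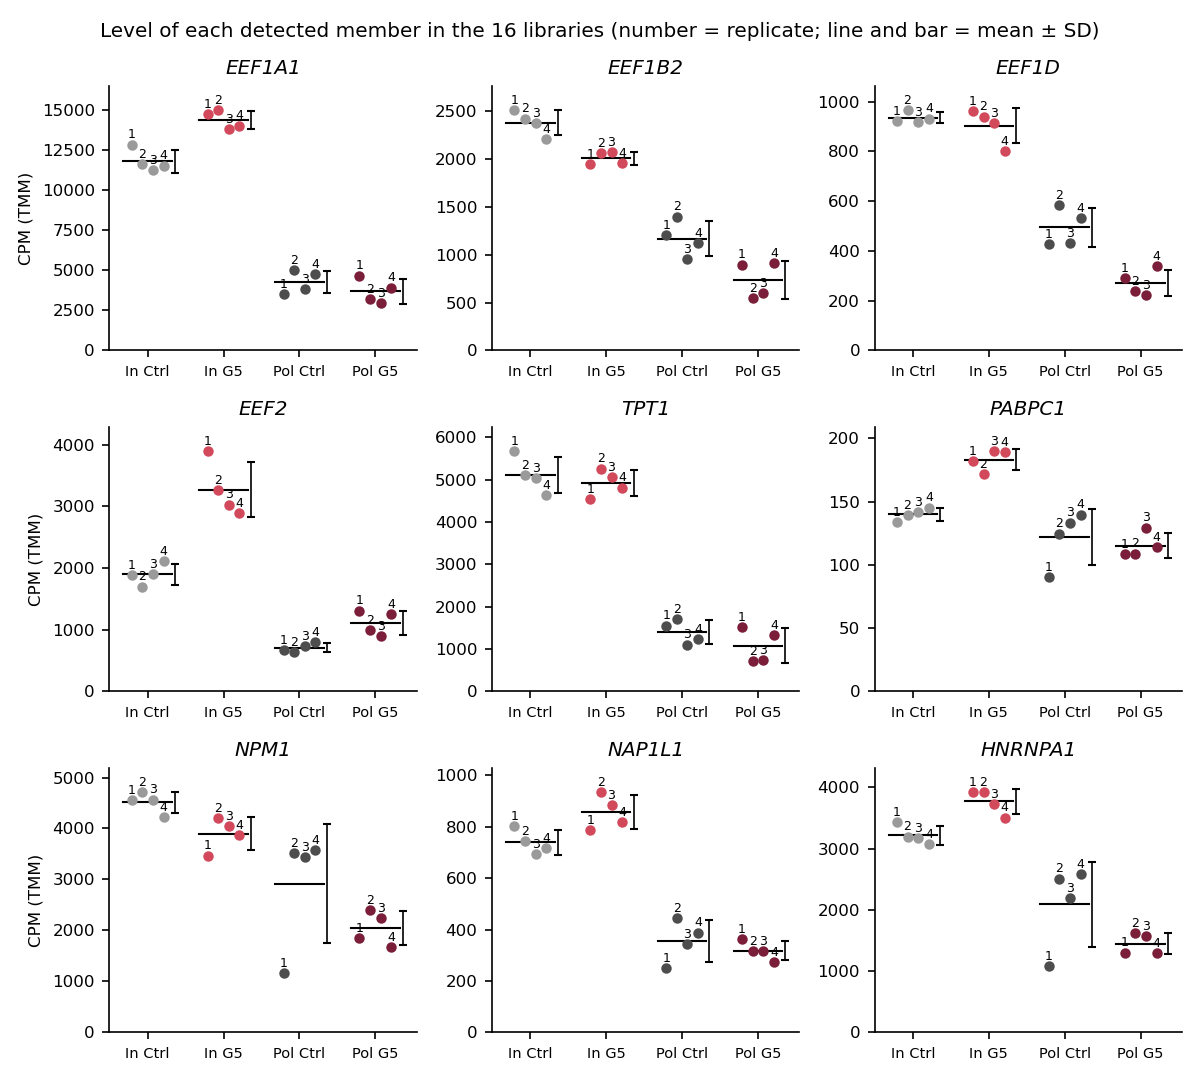
Level (CPM after TMM normalization, linear axis from 0) of the 9 members with reads in the Input (In) and Polysome (Pol) libraries of Ctrl and siRNAG5 (G5) cells. Each point is a library with its replicate number, lines are means and bars are SD (n = 4), and the EEF2 points of siRNAG5 lie above those of Ctrl in both fractions.

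The first comparison asked whether silencing of Gemin5 changed the amount of these mRNAs in the cytoplasm. In Input, EEF2 rose 1.74-fold in siRNAG5 cells and was the only member called, that is, with a Benjamini-Hochberg adjusted p under 0.05 over all genes in edgeR's quasi-likelihood test and a log2 FC beyond 0.5. Smaller differences that passed the adjusted p but not the fold limit were positive for PABPC1, EEF1A1, HNRNPA1 and NAP1L1 and negative for EEF1B2 and NPM1. EEF1D and TPT1 were near 0. The signs thus differed between members in the cytoplasm. Of 9 members tested, 1 was called higher and 0 lower, where 10.5% of the 14134 genes tested were called higher and 6.02% lower, so that the count itself is close to that of genes in general.

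EEF2 (ENSG00000167658, chromosome 19 from 3976056 to 3985463) is the translocase of elongation and the target of its own inhibitory kinase. It stood at 1881, 1700, 1898 and 2108 CPM in Input Ctrl 1 to 4 and at 3897, 3258, 3027 and 2890 CPM in Input siRNAG5 1 to 4. The lowest siRNAG5 library lay well above the highest Ctrl library. The log2 FC was 0.80 (SE 0.07, edgeR adjusted p = 1.77e-09), and it stayed between 0.65 and 0.90 under all alternatives. It was 0.88 without Input Ctrl 3 and 4, the Input libraries with liver reads, a fit added after the data were seen.

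EEF1A1 (ENSG00000156508, chromosome 6 from 73489308 to 73525587) encodes the factor that brings aminoacyl-tRNA to the ribosome. Its level was 12852, 11618, 11255 and 11536 CPM in Input Ctrl and 14766, 15009, 13815 and 14033 CPM in Input siRNAG5. The groups did not overlap, although the difference was only 1.23-fold (log2 FC 0.30, SE 0.06, edgeR adjusted p = 0.000111). The exchange factor subunit EEF1B2 (ENSG00000114942, chromosome 2 from 206159585 to 206162928) had the opposite sign. It was at 2509, 2421, 2372 and 2202 CPM in Input Ctrl and at 1943, 2057, 2070 and 1954 CPM in Input siRNAG5, a log2 FC of -0.23 (SE 0.06, edgeR adjusted p = 0.0022), and the groups were again separate. EEF1D (ENSG00000104529, chromosome 8 from 143579697 to 143599541), the subunit beside it in the exchange complex, was at 935 ± 22.0 and 904 ± 71.9 CPM (mean ± SD of 4 libraries), and its groups overlapped (log2 FC -0.04, edgeR adjusted p = 0.686).

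PABPC1 (ENSG00000070756, chromosome 8 from 100685816 to 100722809), the cytoplasmic poly(A)-binding protein, was at 134, 139, 142 and 145 CPM in Input Ctrl and at 182, 172, 190 and 189 CPM in Input siRNAG5. All siRNAG5 libraries lay above all Ctrl libraries, and the log2 FC of 0.40 (SE 0.06, edgeR adjusted p = 9.28e-06) was the second largest in size among the members. It remained under the fold limit except when scaling by library size alone, where it was 0.51. HNRNPA1 (ENSG00000135486, chromosome 12 from 54280193 to 54287088) was at 3217 ± 152 and 3770 ± 198 CPM (mean ± SD of 4 libraries), with a log2 FC of 0.24 (edgeR adjusted p = 0.00139) without overlap between the groups. NAP1L1 (ENSG00000187109, chromosome 12 from 76036585 to 76084735) was at 739 ± 47.7 and 856 ± 66.2 CPM (mean ± SD of 4 libraries), with a log2 FC of 0.23 (edgeR adjusted p = 0.00597), and its groups overlapped.

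NPM1 (ENSG00000181163, chromosome 5 from 171387116 to 171411810), the nucleolar chaperone, was at 4561, 4715, 4565 and 4219 CPM in Input Ctrl and at 3467, 4210, 4046 and 3864 CPM in Input siRNAG5. Each siRNAG5 library lay below each Ctrl library, by a small margin (log2 FC -0.20, SE 0.06, edgeR adjusted p = 0.0124). Leaving out single libraries gave an adjusted p from 0.0037 to 0.0609. TPT1 (ENSG00000133112, chromosome 13 from 45333471 to 45341284) was at 5113 ± 429 and 4922 ± 308 CPM (mean ± SD of 4 libraries) with overlapping groups (log2 FC -0.04, edgeR adjusted p = 0.641). In all, 4 members lay wholly higher in siRNAG5 (EEF1A1, EEF2, PABPC1 and HNRNPA1) and 2 wholly lower, where 15.1% of all genes tested were wholly higher and 19.1% wholly lower.

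The second comparison asked the same of mRNA in polysomes. EEF1D fell 1.77-fold and EEF2 rose 1.62-fold in siRNAG5 polysomes, and the other 7 members were not called. Their estimates were all negative, from -0.04 for PABPC1 to -0.63 for EEF1B2, except that PABPC1, EEF1A1 and NAP1L1 turned positive when scaling by library size alone, and PABPC1 and NAP1L1 also without single libraries. Of 9 members, 1 was called lower and 1 higher, where 4.00% of the 14420 genes tested were called lower and 3.95% higher. The 2 calls rest on replicate libraries that spread more than those of Input, with coefficients of variation of the members of 8.56 to 40.1% against 2.35 to 13.7%.

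EEF1D was at 428, 585, 433 and 532 CPM in Polysome Ctrl 1 to 4 and at 289, 239, 222 and 338 CPM in Polysome siRNAG5 1 to 4. The highest siRNAG5 library did not reach the lowest Ctrl library. The log2 FC was -0.82 (SE 0.18, edgeR adjusted p = 0.022), and leaving out single libraries it ranged from -0.93 to -0.71, at an adjusted p of 0.0172 to 0.0857 that kept the call in 3 of 8 fits. The call was lost without Polysome Ctrl 2 (-0.71), Ctrl 4 (-0.80), siRNAG5 1 (-0.85), siRNAG5 2 (-0.75) or siRNAG5 3 (-0.72). It was also lost with the share of reads aligned to several places as a covariate (-0.85) and, by fold, when scaling by library size alone (-0.48).

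EEF2 was at 664, 638, 738 and 795 CPM in Polysome Ctrl and at 1308, 998, 898 and 1247 CPM in Polysome siRNAG5. The groups did not overlap, as in Input. The log2 FC was 0.69 (SE 0.18, edgeR adjusted p = 0.0384), and leaving out single libraries it ranged from 0.61 to 0.80, at an adjusted p of 0.0411 to 0.118 that kept the call only without Polysome siRNAG5 3. It also lost the call with RLE size factors (0.66) and with the several-places share as a covariate (0.60). EEF2 was thus the single member with the same sign, a fold beyond the limit and separate groups in both fractions.

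EEF1B2 was at 1203, 1398, 950 and 1117 CPM in Polysome Ctrl and at 897, 543, 594 and 912 CPM in Polysome siRNAG5. The groups did not overlap, but the log2 FC of -0.63 (SE 0.22) was not called, at an adjusted p of 0.0951 by edgeR. DESeq2 gave -0.66 (adjusted p = 0.0304) and called it, as did edgeR with all 16 libraries in one fit and with 1 surrogate variable. So did a fit with a division of the Polysome libraries as a term, chosen after the data were seen and described below. Over all alternatives the adjusted p ran from 0.000172, in that last fit, to 0.26. EEF1A1 averaged 4272 ± 713 CPM in Ctrl polysomes and 3696 ± 770 CPM in siRNAG5 polysomes (mean ± SD of 4 libraries), with overlap and a log2 FC of -0.17 (edgeR adjusted p = 0.672). The 2 detected subunits of the exchange complex, EEF1B2 and EEF1D, were therefore wholly lower in polysomes of siRNAG5 cells, EEF2 was the 1 member wholly higher, and the other 6 members overlapped, where 10.0% of all genes tested were wholly lower and 8.29% wholly higher.

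Among the other members, HNRNPA1 had a log2 FC of -0.48 (SE 0.26, adjusted p = 0.249) and NPM1 of -0.47 (SE 0.31, adjusted p = 0.36) in edgeR's test. TPT1 was at -0.34 (SE 0.27), from -0.55 without Polysome siRNAG5 1 to -0.18 without siRNAG5 2, and at -0.01 when scaling by library size alone. Without Polysome Ctrl 2 it was at -0.22 and without siRNAG5 3 at -0.19. NAP1L1 was at -0.12 (SE 0.19) and PABPC1 at -0.04 (SE 0.15). At these standard errors a difference of the size seen for PABPC1 in Input was not detectable for HNRNPA1, NPM1 or TPT1.

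**Figure D2:**
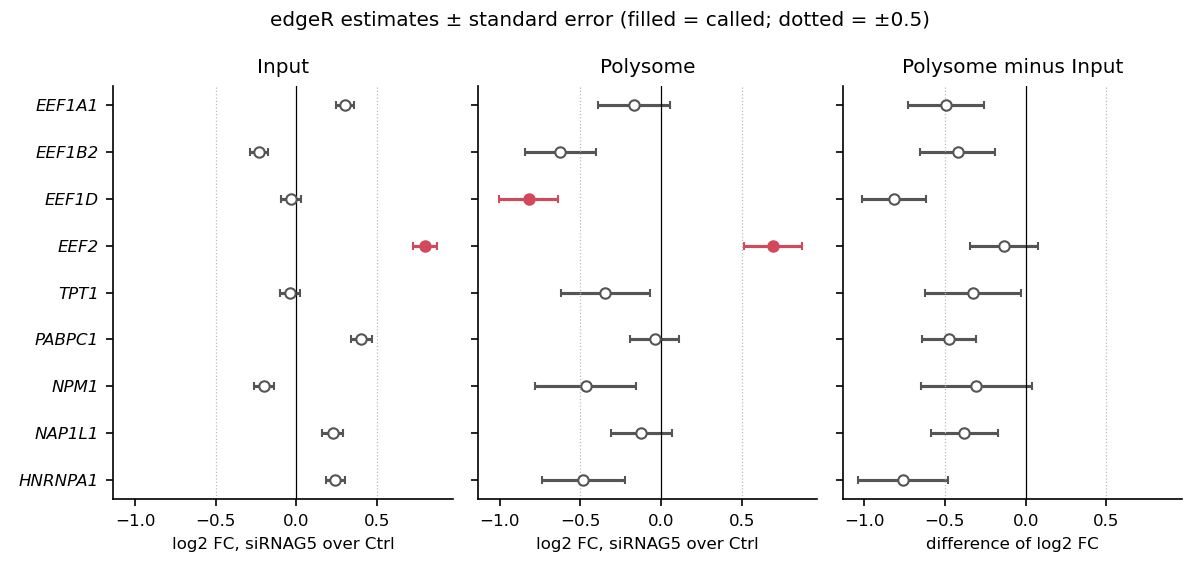
edgeR estimates of log2 FC (siRNAG5 over Ctrl) with standard errors for the 9 members in Input, in Polysome, and for the Polysome change minus the Input change. Filled points were called, dotted lines mark a log2 FC of 0.5 in each direction, and all 9 differences lie below 0, although EEF2 lies above it when scaling by library size alone.

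Whether polysomes changed differently from the cytoplasm was tested as the Polysome change minus the Input change in one fit of the 16 libraries. The estimate was negative for all 9 members, from -0.13 for EEF2 to -0.81 for EEF1D, with a median of -0.42 against -0.06 over the 14958 genes tested, and EEF2 alone turned positive (0.12) when scaling by library size alone. None was called by edgeR, where 0.00% of all genes were called lower, and 4 members and 1089 genes had an unadjusted p under 0.05. These 4 were EEF1D, PABPC1, HNRNPA1 and EEF1A1. DESeq2 without shrinkage called EEF1D alone, where 0.0406% of 29591 genes were called lower. That base was not filtered for low counts beforehand and is larger than the 14958 genes of edgeR, so the shares are not alike. With 1 surrogate variable, edgeR called EEF1D and HNRNPA1, where 1.99% of all genes were called lower.

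For EEF1D the difference was -0.81 (SE 0.20, edgeR adjusted p = 0.331, 0.00137 to 0.747 over the alternatives). The lowest of these came from the fit with a division of the Polysome libraries as a term, chosen after the data were seen. With 1 surrogate variable the edgeR adjusted p was 0.00437. Subtracting libraries of the same number gave Polysome minus Input values of -1.11, -0.73, -1.08 and -0.81 in Ctrl and -1.73, -1.98, -2.04 and -1.24 in siRNAG5 on the log2 scale. EEF1D was the only member whose siRNAG5 values all lay below its Ctrl values, although the numbers did not pair the libraries. The share of all genes with such separate values was not computed, so the separation only describes these values. HNRNPA1 had -1.67, -0.35, -0.53 and -0.25 in Ctrl and -1.59, -1.27, -1.25 and -1.44 in siRNAG5, so that Ctrl 1 lay below all siRNAG5 values and the other 3 Ctrl libraries above them. EEF2, at -1.503, -1.42, -1.36 and -1.41 in Ctrl and -1.57, -1.71, -1.75 and -1.21 in siRNAG5, had a difference between the fractions of -0.13 (SE 0.21), which ran from -0.22 without Polysome siRNAG5 1 to -0.02 without Polysome siRNAG5 3. It was also nearer 0 without Input siRNAG5 1 (-0.04), Polysome siRNAG5 2 (-0.06), Polysome Ctrl 4 (-0.07) or Input Ctrl 2 (-0.09).

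**Figure D3:**
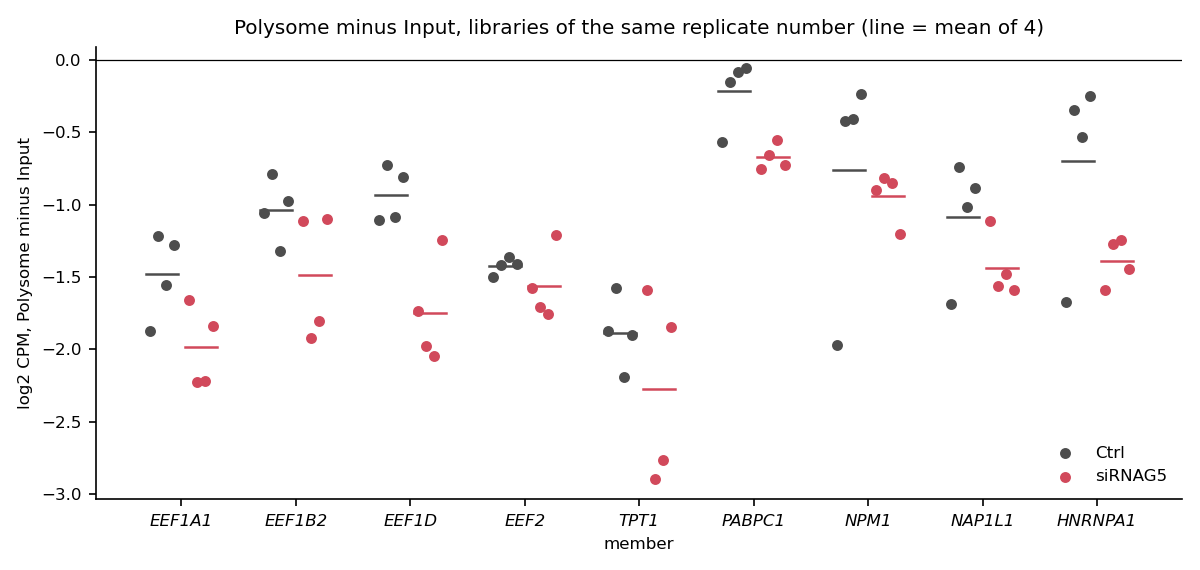
Polysome minus Input level (log2 CPM after TMM normalization) of each member, for libraries of the same treatment and replicate number, with Ctrl in grey and siRNAG5 in red and lines at the mean of 4. All values lie below 0, those of TPT1 in siRNAG5 2 and 3 lowest (-2.89 and -2.76) and that of PABPC1 in Ctrl 4 highest (-0.06). Scaled by library size alone, PABPC1 was higher in Polysome than in Input.

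The same fit compared Polysome with Input within each treatment, which gives the level of each mRNA on polysomes relative to other mRNAs there. In Ctrl cells 8 of 9 members were called lower in Polysome than in Input, and in siRNAG5 cells 9 of 9. The exception in Ctrl was PABPC1, whose estimate was negative (-0.20) but not called. When scaling by library size alone, PABPC1 lay on the other side of 0 in both treatments. The background was 18.2% of 14958 genes called lower in Ctrl and 25.4% in siRNAG5. By library size alone, 4 members in Ctrl and 7 in siRNAG5 were called lower, where 5.17% and 5.85% of all genes were. TPT1 was the most depleted and PABPC1 the least, in both treatments. The median over members was -1.03 in Ctrl and -1.45 in siRNAG5, against -0.04 and -0.12 over all genes.

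TPT1 was 3.64-fold lower in Polysome than in Input in Ctrl (log2 FC -1.87, SE 0.22, edgeR adjusted p = 1.73e-06) and 4.57-fold lower in siRNAG5 (log2 FC -2.19, SE 0.22, adjusted p = 1.52e-07). Its Polysome level was 1553, 1712, 1105 and 1241 CPM in Ctrl and 1515, 710, 747 and 1337 CPM in siRNAG5, where every Input library was at 4551 CPM or above. EEF1A1 was at -1.47 (SE 0.17) in Ctrl and -1.96 (SE 0.17) in siRNAG5, and EEF2 at -1.42 and -1.55 (SE 0.15 each). EEF1B2 went with -1.03 and -1.45, and EEF1D with -0.92 and -1.73, all with an adjusted p of at most 5.84e-05 by edgeR.

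NAP1L1 was at -1.05 in Ctrl and -1.43 in siRNAG5, HNRNPA1 at -0.62 (edgeR adjusted p = 0.0151) and -1.38, and NPM1 at -0.63 (edgeR adjusted p = 0.0413) and -0.93. The 2 weakest of these in Ctrl depended on Polysome Ctrl 1, without which HNRNPA1 was at -0.39 and NPM1 at -0.35 and neither was called. NPM1 lost its call also without any 1 of the 4 Input Ctrl libraries, by the adjusted p alone, at values of -0.66 to -0.60. It lost it with RLE size factors as well (-0.60). Scaled by library size alone, HNRNPA1 and NPM1 were both at -0.07 in Ctrl and NPM1 at -0.09 in siRNAG5, and none of these was called. PABPC1 was at -0.20 (SE 0.12, edgeR adjusted p = 0.189) in Ctrl and -0.67 (SE 0.12, adjusted p = 9.65e-05) in siRNAG5. Its Polysome libraries overlapped the Input libraries in Ctrl and lay wholly below them in siRNAG5. The Polysome libraries lay wholly below the Input libraries for 8 members in Ctrl and 9 in siRNAG5, against 22.1% and 27.3% of all genes tested.

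Polysome and Input libraries differed in composition. Reads aligned to several places were 21.2 to 42.4% against 4.88 to 6.04%, and the TMM factors were 0.97 to 1.59 against 0.74 to 0.85, both without overlap, so that their part in these levels and that of the fraction cannot be told apart. The TMM factors also separated the treatments within each fraction. They were 0.97 to 1.25 in Polysome Ctrl and 1.29 to 1.59 in Polysome siRNAG5. In Input they were 0.74 to 0.78 in Ctrl and 0.81 to 0.85 in siRNAG5. Their part in the siRNAG5 over Ctrl results and that of the treatment cannot be told apart either. Scaling by library size alone moved the median of all genes to 0.51 in Ctrl and 0.69 in siRNAG5 for Polysome against Input, to 0.38 in Polysome, 0.14 in Input and 0.21 for the difference. A change of scaling shifts all genes of a comparison by nearly the same amount, so it can hardly alter positions relative to these medians. Such positions therefore cannot test the scaling. With either scaling, 9 of 9 members lay below the median of all genes in both treatments and for the difference. Relative to it, the members had medians of -0.999 and -1.35 for Polysome against Input, and of -0.99 and -1.32 with TMM.

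Members did not move as one among the Polysome libraries. Ctrl 1 was the lowest of its group for 6 members, by the widest margin for NPM1 and HNRNPA1. NPM1 stood at 1164 CPM there and at 3515, 3432 and 3573 CPM in Ctrl 2 to 4, and HNRNPA1 at 1079 against 2511, 2193 and 2584 CPM. The same library was not low for TPT1, at 0.17 above the mean of its group on the log2 scale, or for EEF1B2, at 0.06 above it. Both NPM1 and HNRNPA1 were also lower in siRNAG5 1 and 4 (1854 and 1678 CPM, and 1304 and 1291 CPM) than in siRNAG5 2 and 3 (2393 and 2238 CPM, and 1626 and 1571 CPM).

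The elongation factors and TPT1 went the other way in siRNAG5. EEF1A1, EEF1B2, EEF1D, EEF2 and TPT1 were all higher in siRNAG5 1 and 4 than in siRNAG5 2 and 3, with TPT1 at 1515 and 1337 CPM against 710 and 747 CPM. Ctrl 1 and 2 correlated positively with siRNAG5 1 and 4 in their deviations from the group means over all genes, and Ctrl 3 and 4 with siRNAG5 2 and 3, so that this division crosses the treatments. Reads aligned to several places were 27.6, 22.1, 21.2 and 32.8% in Ctrl 1 to 4 and 42.4, 29.0, 26.3 and 26.6% in siRNAG5 1 to 4. With the division as a term in the model, chosen after the data were seen, EEF1D (-0.84) and EEF1B2 (-0.65) were called lower and EEF2 (0.68) higher. Calls rose over all genes too, to 10.3% lower and 10.9% higher, from 4.00% and 3.95% without the term. For the difference between the fractions EEF1D (-0.83) and HNRNPA1 (-0.75) were called lower, where 1.89% of all genes were, against 0.00% without the term.

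**Figure D4:**
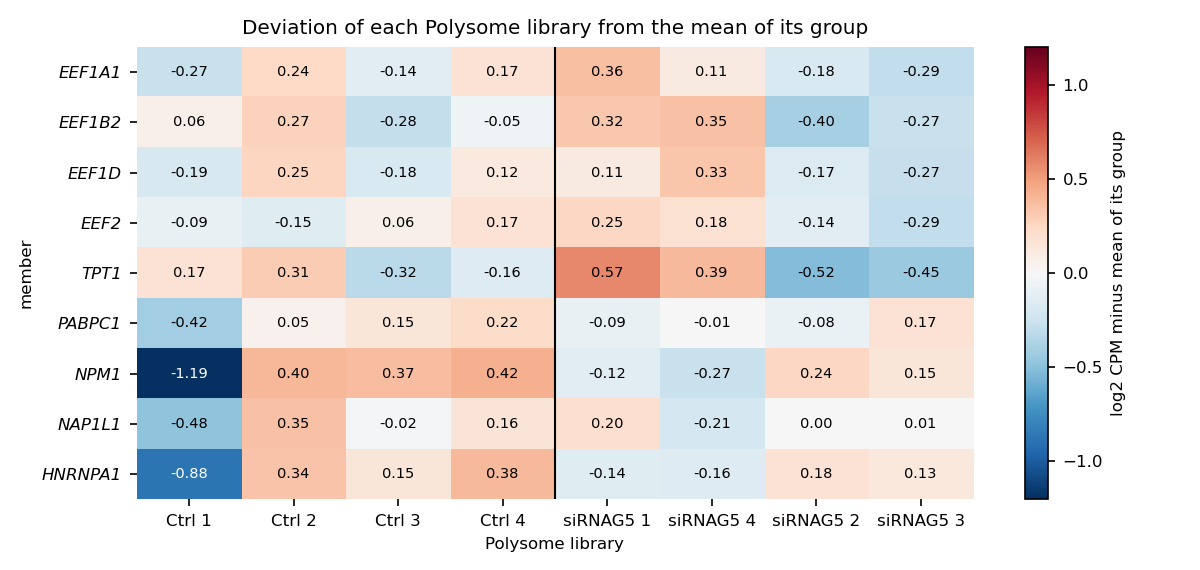
Deviation of each Polysome library from the mean of its group (log2 CPM, colour scale and printed values) for the 9 members, with siRNAG5 1 and 4 placed side by side. NPM1 and HNRNPA1 are low in Ctrl 1 (-1.19 and -0.88), while TPT1 and EEF1B2 are high in siRNAG5 1 and 4 and low in siRNAG5 2 and 3.

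The ribosomal protein mRNAs are the main body of the TOP class, and were set beside the members as a description. For this and the following lists, 6.02% of all genes were called lower and 10.5% higher in Input, and 4.00% and 3.95% in Polysome. For Polysome against Input, 18.2% were called lower and 19.4% higher in Ctrl, and 25.4% and 21.5% in siRNAG5. In Input the ribosomal proteins had a median log2 FC of -0.03, with 2 called lower and 1 higher of 79 tested, whereas the members had a median of 0.23 against 0.04 over all genes. In Polysome 8 ribosomal protein genes were called lower and none higher, with a median of -0.81 against -0.34 for the members. Ribosomal proteins thus lay lower than most members in siRNAG5 polysomes, and EEF1D (-0.82) was the member nearest their median. For Polysome against Input they had a median of -1.03 in Ctrl and -1.79 in siRNAG5, with 74 and 78 of 79 called lower, a similar depletion to that of the members in Ctrl. RPS2 was the lowest (-2.46 and -2.68).

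The 15 further TOP mRNAs include subunits of initiation factor eIF3, RACK1 and the small nucleolar RNA host GAS5. In Input 2 of 15 were called higher, GAS5 at 1.07 and EIF4A2, an RNA helicase of initiation, at 0.63, and none lower. Of all genes, 10.5% were called higher there and 6.02% lower. In Polysome EIF4A2 was called higher (0.60) and none lower. For Polysome against Input, 8 of 15 were called lower in Ctrl and 13 in siRNAG5, led by GAS5 (-2.03 and -2.61), and EIF4B was the one gene above 0 in both (0.01 and 0.12). Outside the members, the 542 genes tested in Input that had a TOP start in the promoter table and encode no ribosomal protein had a median log2 FC of 0.13 there, and the 9825 with another start of 0.01. In the Polysome fit the corresponding 555 and 10094 genes had medians of 0.06 and 0.03, and for Polysome against Input in siRNAG5 562 and 10269 genes had -0.20 and -0.07. The medians of these genes lay nearer to 0 than those of the members.

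Most partners of the elongation factors were not called. Of 22 tested, 6 were called lower and 2 higher in Input, where 6.02% and 10.5% of all genes were, and 4 lower and 1 higher in Polysome, where 4.00% and 3.95% were. EEF1A2, the paralog of EEF1A1 known from muscle and nerve, rose by a log2 FC of 1.28 in Input and 0.92 in Polysome. EIF5A, which helps ribosomes through difficult peptide bonds, fell by 0.67 in Input and by 0.77 in Polysome. DPH2 and DPH7, enzymes that make the diphthamide of EEF2, fell in Input by 0.94 and 0.72, and EEF1AKMT1, a methyltransferase of EEF1A, by 0.85. EEF1E1, which shares a domain with the exchange factor, was at -0.26 in Input and -0.34 in Polysome and was not called. For Polysome against Input, 5 partners were called lower and 5 higher in each treatment, among them VARS1, the valyl-tRNA synthetase that binds the exchange complex (-1.27 in Ctrl and -1.80 in siRNAG5), and EEF2K, the kinase of EEF2 (1.31 and 1.55). Of all genes, 18.2% were called lower and 19.4% higher in Ctrl, and 25.4% and 21.5% in siRNAG5. The counts of partners are thus close to those of genes in general.

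The mitochondrial elongation factors do the same work on mitochondrial ribosomes and are not part of the TOP class. None of the 5 was called in Input or in Polysome, where TUFM was at -0.25 and -0.33, TSFM at -0.38 and -0.21 and GFM1 at -0.43 and -0.01. For Polysome against Input, 3 were called lower and 1 higher in each treatment, with TUFM at -0.79 in Ctrl and -0.90 in siRNAG5. Of all genes, 18.2% were called lower and 19.4% higher in Ctrl, and 25.4% and 21.5% in siRNAG5.

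Relatives and partners of the remaining members were mostly not called. Of 11 poly(A)-binding proteins and partners tested, none was called in Input or Polysome. PABPC4, the closest cytoplasmic relative of PABPC1, was at -0.28 in Input, opposite in sign to PABPC1, and at -0.34 in Polysome. For Polysome against Input in Ctrl 1 was called lower and 5 higher, where 18.2% and 19.4% of all genes were. The nuclear PABPN1 was at 0.87 there, and PABPC1 at -0.20 lay below most of these genes. Of 9 relatives of NPM1, NAP1L1 and HNRNPA1, none was called in Input or Polysome. HNRNPA2B1 was at -0.27 and -0.93 (SE 0.49), HNRNPA3 at -0.10 and -0.23, HNRNPA0 at -0.23 and -0.49, NPM3 at -0.14 and -0.45 and NAP1L4 at 0.00 and -0.06. In contrast to HNRNPA1, HNRNPA0 was higher in Polysome than in Input in both treatments (0.84 and 0.55).

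The regulators of TOP mRNAs include mTOR, its partner RPTOR, the cap-binding proteins and LARP1. In Input EIF4E fell (-0.57) and RPTOR rose (0.54) among 14 tested, and in Polysome none was called, with LARP1 at 0.45 (SE 0.22). LARP1 was at 0.31 in Input (edgeR adjusted p = 0.051). LARP1 mRNA itself was strongly enriched in Polysome over Input (2.13 in Ctrl and 2.23 in siRNAG5), opposite to the members, and MTOR was depleted (-0.91 and -1.39).

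**Figure D5:**
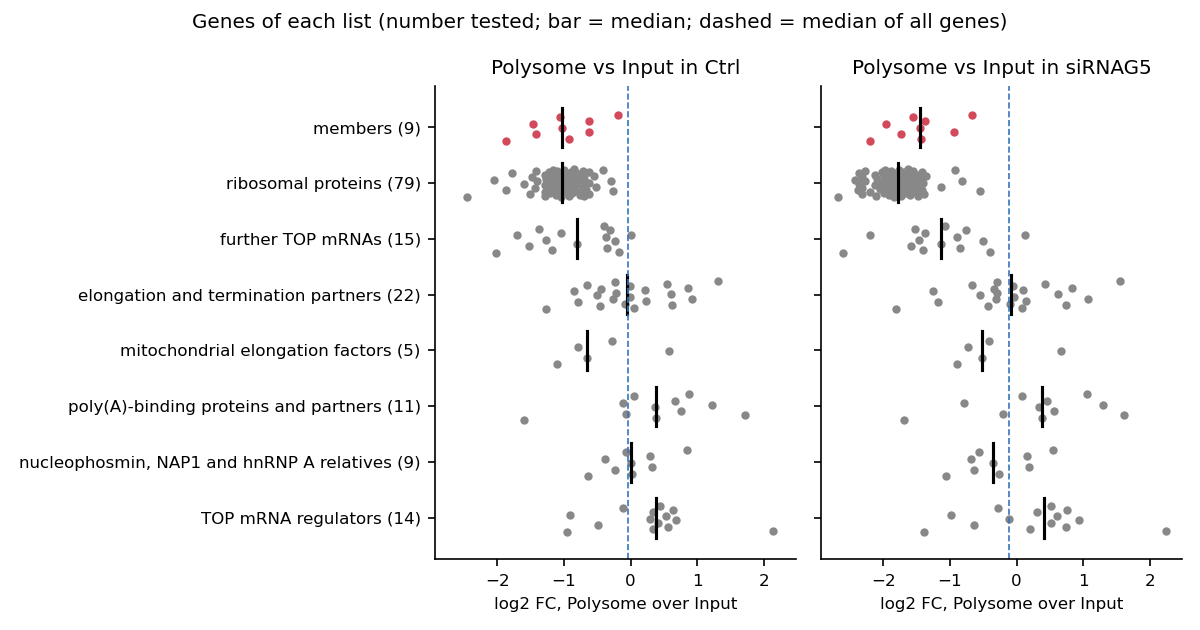
log2 FC of Polysome over Input (edgeR) for the genes of each list in Ctrl and in siRNAG5, with the number tested in Input in brackets, bars at list medians and a dashed line at the median of all genes. The members (red), ribosomal proteins and further TOP mRNAs have medians of -1.03, -1.03 and -0.80 in Ctrl and -1.45, -1.79 and -1.14 in siRNAG5, while the regulators have 0.38 and 0.41.

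Over the 16 libraries, the genes whose log2 CPM was most like the mean of the members, each member centred, were RACK1 (Pearson r = 0.995), SLC25A3 (0.994), EIF3F (0.992), RPL4 (0.992) and RPS4X (0.991). These 16 points share the division into Input and Polysome. RACK1 and EIF3F are among the further TOP mRNAs, RPL4 and RPS4X encode ribosomal proteins, and SLC25A3 encodes the mitochondrial phosphate carrier.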

How the data were processed

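Stranded libraries of polyadenylated RNA were sequenced by the authors, aligned with STAR 2.5.3a to GRCh38 (Ensembl release 91) and counted per gene with QoRTs. The deposited values are whole-number counts per gene without normalization, one file per library, and the rows of the authors for reads on no gene, on several genes or at several places were kept out of library sizes. Groups and replicate numbers came from the labels. Input and Polysome were each fitted alone, and the remaining contrasts in one fit of 16 libraries, by the quasi-likelihood test of edgeR 4.0.16 (R 4.3.3) after filterByExpr and TMM, with Benjamini-Hochberg adjustment over all genes tested. The study used DESeq2, which was run as an alternative (1.42.0), beside RLE factors, library size alone, no filter, a block, all 16 libraries, covariates, sva 3.50.0 and each library left out. Names and coordinates came from GENCODE v44 (57532 of 58302 identifiers). The members and lists were chosen with earlier results of these data known. All members, the 2 lowest and 2 highest of each list, close relatives and the 5 most similar genes were to be named, and others (DPH7) were named after their values were seen. On simulated counts with 200 genes changed by a log2 FC of 1.5, edgeR recovered 200 in Input (13950 genes), 198 in Polysome (14211), 193 for the difference (14643) and 199 for Polysome against Input (14620). In the same order, 6, 11, 6 and 9 unchanged genes were called. The planted change was larger than any member change in Input, in Polysome or for the difference, so recovery at those sizes was not tested. Python 3.11.15, pandas 2.3.3, numpy 2.4.6 and matplotlib 3.10.9 were used.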

Additional observations from a re-analysis of the deposited data

Results flagged for a closer look

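Among 36 groups of 4 libraries (9 members in 4 groups), 1 held a library far from the others by Dixon's criterion, where chance flags about 1 in 20. It was NPM1 in Polysome Ctrl 1, at 1164 CPM against 3432, 3515 and 3573 CPM in the other 3, a gap of 0.941 of the range of the group. Without this library, the log2 FC of NPM1 was -0.73 in Polysome and -0.35 for Polysome against Input in Ctrl.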

How the results depend on the processing

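The count of members called higher in Polysome was 0 with RLE factors (3.45% of all genes) and with the replicate block (3.08%). It was also 0 with the share of reads at several places as a covariate (0.485%), and 0 to 1 with a library left out (0.517 to 4.70%). The count of members called lower there was 0 when scaling by library size alone (1.44% of all genes) and with that covariate (0.603%), and 0 to 1 with a library left out (0.768 to 5.72%). It was 2 with DESeq2 (1200 of 27384 genes), with all 16 libraries (10.2% of all genes) and, chosen after seeing the data, with the library set as a term (10.3%), and 4 with 1 surrogate variable (9.72%). For the difference the count called lower was 1 with DESeq2 (12 of 29591 genes), 2 with 1 surrogate variable (1.99%) and 2 with the library set (1.89%). In Input 2 were called higher by library size alone (15.4% of all genes). With no minimum fold, 2 were called lower (19.1%) and 5 higher (17.9%) in Input. In Ctrl, 4 were called lower in Polysome than in Input by library size alone (5.17%). The cause of these shifts was not tested. The replicate block changed no other call of a member. Numbers did not pair the libraries, since deviations of same-numbered libraries correlated between -0.53 and 0.48.

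Scaling by library size alone turned the sign of EEF1D (0.069) and TPT1 (0.065) in Input, of PABPC1 (0.31), EEF1A1 (0.17) and NAP1L1 (0.24) in Polysome, of EEF2 for the difference (0.12) and of PABPC1 for Polysome against Input (0.36 in Ctrl and 0.16 in siRNAG5). TPT1 in Input was at 0.0075 with the several-places covariate. With a library left out, EEF1D ranged from -0.067 to 0.015 and TPT1 from -0.091 to 0.0027 in Input, and PABPC1 from -0.15 to 0.017 and NAP1L1 from -0.26 to 0.020 in Polysome. Of 801 refitted member values, 739 kept their sign and their side of the threshold.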
